A study of Homo sapiens with 14 samples.

Results

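Kinesins are motor proteins that use ATP to walk along or take apart microtubules, and their messenger RNAs were followed here through drug treatments of 2 cancer cell lines. The family was taken as the protein-coding genes with a symbol of the form KIF plus a number and at most 1 letter, or KIFC plus a number, which gave 42 members of the 60683 genes counted. By known function 14 members were placed as mitotic kinesins, 15 as transport kinesins and 13 as other kinesins. KIF2A, a relative of KIF2C that also acts at the spindle pole, was placed with the other kinesins. The counts and sums of mitotic kinesins below therefore leave KIF2A out. The symbol rule itself uses no expression value, although the family was taken up with earlier results of these data known.

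RNA sequencing compared 5 groups of A549, a lung adenocarcinoma line, and 2 groups of SUM159, a triple negative breast cancer line. A549 cells were left untreated or were given 2 µM palbociclib (an inhibitor of the kinases CDK4 and CDK6) for 10 days, 0.5 µM indisulam (a sulfonamide that leads to loss of the splicing factor RBM39) for 10 days, both drugs at these doses for 10 days, or 0.5 µM PF-06873600 (which inhibits CDK2 as well as CDK4 and CDK6) for 7 days. SUM159 cells were left untreated or were given 0.5 µM PF-06873600 for 7 days. Each group had 2 libraries, which the series describes as technical duplicates, so every p-value below measures the spread between such duplicates and not between separate cultures. All cells of a line shared its medium, RPMI for A549 and DMEM/F12 with insulin and hydrocortisone for SUM159, and the labels do not state when the untreated cells were collected.

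Mitotic kinesins build the spindle, move chromosomes and set up the midzone where the cell divides, and most are made mainly around mitosis. Transport kinesins carry vesicles, organelles and RNA along microtubules in dividing and resting cells alike, often with adaptor subunits that bind the cargo. The other kinesins regulate microtubule length, serve cilia or signalling, or have no settled role.

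Levels are given as CPM, a gene's counts divided by the library's total on all genes and scaled to 1000000, and changes as log2 fold changes with their standard error (SE). A gene is called higher or lower where the adjusted p of edgeR's quasi-likelihood test (Benjamini-Hochberg over all genes tested) is under 0.05. Totals ran from 13060374 to 21149256 counts per library. Duplicates of every group differed by more than counting noise (chi-square per degree of freedom 1.61 to 9.57), and the untreated pairs of A549 (9.57) and SUM159 (9.05) stood farthest apart. KRT7, KRT8, KRT18, KRT19 and CDH1 stood at 93.1 CPM or more in each A549 library, and EPCAM at 7.73 to 26.4 CPM. The lung markers NKX2-1 and SFTPC were at under 0.5 CPM in each library, and NAPSA was at 0.533 to 3.69 CPM in A549. A549 also had VIM at 628 to 1792 CPM, and ZEB1 at 30.9 to 56.2 CPM beside 64.1 to 82.7 CPM in SUM159. SUM159 had VIM at 3609 to 4318 CPM, CDH1, EPCAM and KRT19 under 1 CPM, KRT8 and KRT18 at 166 to 433 CPM, ESR1 and PGR near 0, and ERBB2 at 118 to 130.2 CPM. KRT7 was higher in untreated SUM159 (1922 and 1833 CPM) than in untreated A549 (1062 and 901 CPM).

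Of the 42 kinesins, 38 passed the filter on low counts in A549 and 35 in SUM159. KIF2B, a microtubule depolymerase, had 0 counts in all 14 libraries, and KIF19 had 1 count in all. KIF4B, an intronless copy of KIF4A whose reads may be split with its parent, had 16 counts over all libraries, and KIF25 had 34. KIF12, KIF26A and KIF6 passed the filter in A549 only.

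Per kilobase of exon, the most abundant kinesin in both untreated lines was KIF5B, the ubiquitous heavy chain of conventional kinesin, at 47.3 ± 4.33 CPM per kilobase (SD, n = 2) in A549 and 73.2 ± 0.873 in SUM159. In A549 the next were KIF1C, which moves vesicles and RNA, at 24.1 ± 0.713, and KIF12 at 23.98 ± 9.09, which did not differ beyond their spread. In SUM159 the mitotic kinesin KIF20A came next at 42.1 ± 1.08 with KIF1C at 40.95 ± 1.56, again within their spread. With the length of the canonical transcript in place of all exons KIF5B still led both lines, but KIFC3 was at rank 2 in A549 (40.5 CPM per kilobase) with KIF1C at rank 4, and in SUM159 KIF22 was at rank 3 (47.6), after KIF20A. In counts KIF5B stood at 259.5 and 295 CPM in untreated A549, 281 and 281 with palbociclib, 291 and 317 with indisulam, 265 and 283 with both drugs and 285 and 283 with PF-06873600. KIF5B was called in no A549 treatment (log2 fold changes -0.02 to 0.13), although indisulam was called higher without untreated replicate 2 (0.23). SUM159 had 433 and 426 CPM in untreated SUM159 and 311 and 303 with PF-06873600, a log2 fold change of -0.48 ± 0.06 (SE).

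Summed over the list, mitotic kinesins made 389.9 ± 7.22 CPM (SD, n = 2) in untreated A549 and 1291 ± 11.4 CPM in untreated SUM159. The sum was 355 ± 2.79 CPM with palbociclib, 409.7 ± 14.2 with indisulam and 113 ± 0.747 with both drugs, which left 0.291 of the untreated level under the combination. With PF-06873600 it was 237 ± 5.00 CPM in A549 and 482 ± 3.89 in SUM159, or 0.608 and 0.373 of the untreated level. Transport kinesins summed to 1058 ± 0.855 CPM in untreated A549 and to 1306 ± 2.55 with both drugs, and to 1237 ± 8.75 in untreated SUM159 and 1151 ± 9.92 with PF-06873600. Mitotic kinesins thus made 22.2 ± 0.599% of all kinesin counts in untreated A549 and 6.73 ± 0.0724% under the combination, and the share in SUM159 went from 45.7 ± 0.267% to 26.0 ± 0.0191%. The sum over all kinesins was 1759 ± 15.002 CPM in untreated A549 and 1686 ± 7.04 with both drugs, and 2825 ± 8.33 against 1853 ± 16.3 CPM in SUM159. In bulk RNA, fewer dividing cells and less of these RNAs per cell cannot be told apart.

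**Figure D1:**
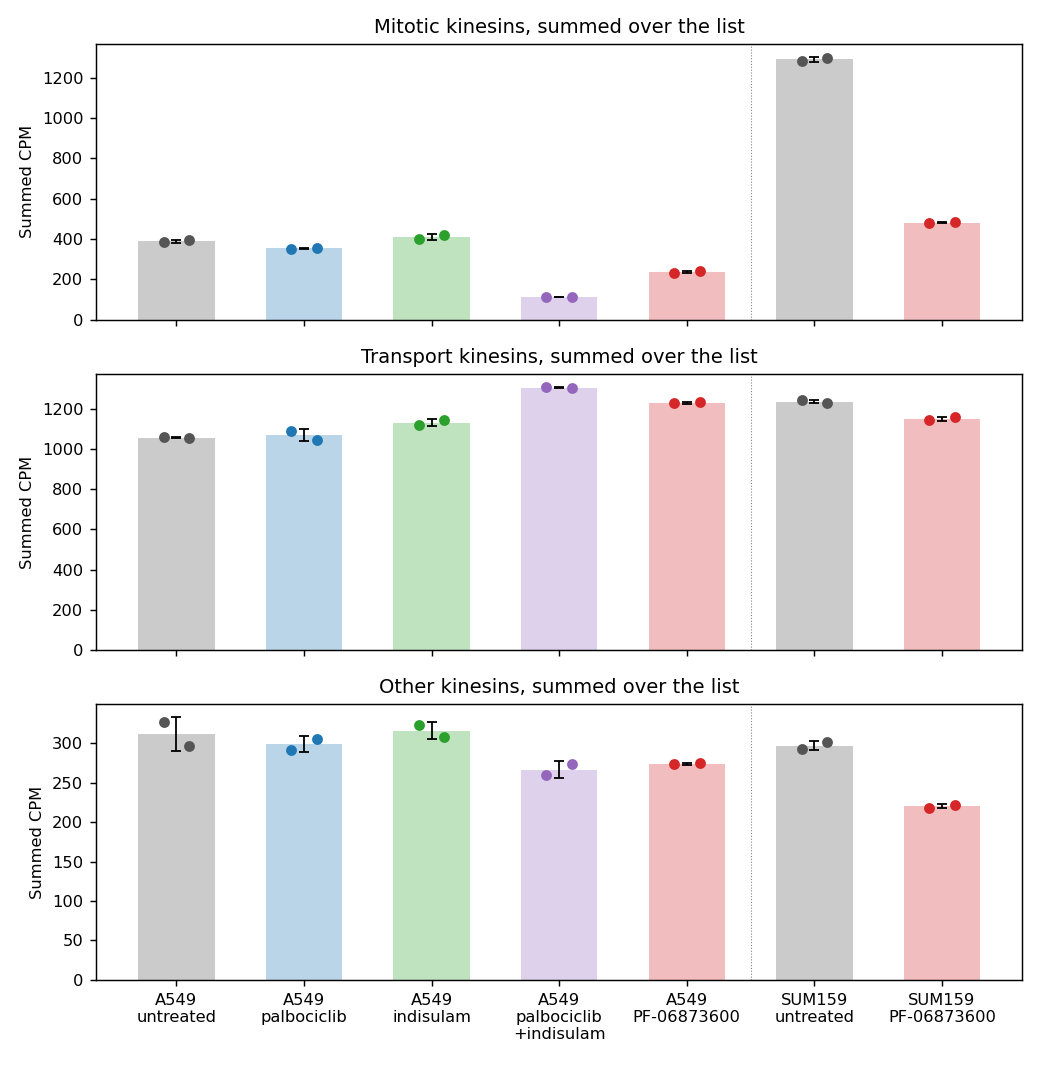
Summed CPM of the mitotic, transport and other kinesins (panels, linear axes from 0) in each of the 14 libraries (points), with group means (bars) and SD (error bars, n = 2). The mitotic sum is lowest in the A549 combination libraries (113 CPM) and highest in untreated SUM159 (1291 CPM), while the transport sum stays between 1048 and 1308 CPM.

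The first question was what each drug alone did to the mitotic kinesins of A549. Palbociclib left 5 of the 12 tested lower and 2 higher, where 7.4% of all 15780 genes tested were called lower and 8.3% higher. The median log2 fold change of the 12 was -0.21, against -0.01 over all genes tested. Lower were KIF2C (-0.62 ± 0.10), KIF20A (-0.55 ± 0.10), KIFC1 (-0.52 ± 0.11), KIF4A (-0.43 ± 0.08) and KIF11 (-0.24 ± 0.08, adjusted p = 0.0474). KIF20B (0.62 ± 0.10) and KIF18A (0.53 ± 0.10) were higher. The call on KIF11 was lost with TMM factors, in DESeq2 (adjusted p = 0.195), with no filter on low counts, and without untreated replicate 2 or either palbociclib replicate (-0.27 to -0.21), and that on KIFC1 without palbociclib replicate 1 (-0.39). The count lower was 3 when only the compared groups were fitted, where 406 of 14341 genes tested were lower.

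Indisulam left 2 of the 12 lower and 3 higher, against 17.5% of all genes tested lower and 28% higher. Lower were KIF20A (-0.39 ± 0.09) and KIF20B (-0.36 ± 0.10). KIF18A (0.83 ± 0.10), KIF23 (0.34 ± 0.07) and KIF4A (0.21 ± 0.08, adjusted p = 0.0439) were higher. The median of the 12 was 0.05, beside 0.08 over all genes tested. Without untreated replicate 2, or without indisulam replicate 1, KIF20B was no longer called and the count lower was 1. Scaling by TMM factors, which centre most genes on no change, moved the background to 22.5% lower and 22.9% higher, and the call on KIF4A was lost. That call was also lost in DESeq2, with no filter on low counts, with the block, with only the compared groups, and without any one of the 4 libraries (0.19 to 0.22).

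The combination lowered all 12 mitotic kinesins tested, where 30% of all genes tested were lower and 35.1% higher. Their median log2 fold change was -2.24, from -3.19 (KIF20A) to -0.58 (KIF18A), beside 0.05 over all genes tested. All 12 were also lower than with palbociclib alone (background 26.9% lower and 33.5% higher, median of the 12 -2.03) and lower than with indisulam alone (23.9% lower and 22% higher, median -2.42). The interaction term tests whether the combination change departed, in either direction, from the sum of the separate log2 changes. It was negative for all 12 (median -1.999), where 14.5% of all genes had a negative and 10.7% a positive term. A negative term means a combination change below that sum, also where a single drug raised the gene. These counts stayed at 12 in every alternative and without any one library. Comparisons with untreated A549 share the same 2 control libraries.

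Of the mitotic list, KIF11, KIF15 and KIFC1 act on how the spindle poles are pushed apart or gathered, and each was lower with the combination. KIF11, which slides antiparallel microtubules to push the poles apart, stood at 54.7 and 56.1 CPM in untreated A549, 46.01 and 48.02 with palbociclib, 54.3 and 59.01 with indisulam, 13.4 and 12.2 with both drugs and 33.5 and 36.1 with PF-06873600. The 2 combination libraries lay below all the others and the PF-06873600 pair came next, while indisulam overlapped the untreated pair. The combination changed KIF11 by -2.12 ± 0.09 (SE), a 4.34-fold fall, with an interaction of -1.91 ± 0.12. KIF15, a motor that can stand in for KIF11, was lower in abundance throughout, at 6.93 and 6.9997 CPM in untreated A549, 6.68 and 6.83 with palbociclib, 7.60 and 7.60 with indisulam, 1.13 and 1.48 with both drugs and 3.83 and 4.51 with PF-06873600. Both single drugs left its values close to the untreated pair, and the combination changed it by -2.40 ± 0.20. KIFC1, a minus-end-directed motor that gathers spindle poles, stood at 22.5 and 21.1 CPM in untreated A549, 13.7 and 16.6 with palbociclib, 19.7 and 20.9 with indisulam, 3.55 and 3.54 with both drugs and 12.2 and 12.6 with PF-06873600. Here palbociclib alone already lay below both untreated libraries, and the combination change was -2.62 ± 0.14.

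Motors that act on chromosomes and their attachments differed widely in the size of their fall. KIF2C, a depolymerase that frees wrongly attached kinetochores, stood at 25.8 and 24.6 CPM in untreated A549, 17.1 and 15.7 with palbociclib, 24.4 and 23.3 with indisulam, 2.77 and 3.15 with both drugs and 8.58 and 9.27 with PF-06873600. Palbociclib and PF-06873600 lay below the untreated pair and the combination lay lowest, at -3.08 ± 0.13 on the log2 scale or 8.46-fold down. KIF18A, which limits the swinging of chromosomes at the metaphase plate, stood at 14.7 and 15.8 CPM in untreated A549, 21.4 and 22.5 with palbociclib, 26.1 and 28.3 with indisulam, 10.9 and 9.53 with both drugs and 15.01 and 14.9 with PF-06873600. Both single drugs were above the untreated pair, the combination was below it, and PF-06873600 overlapped it. Its combination change of -0.58 ± 0.11 was the smallest of the 12, yet its interaction was -1.94 ± 0.14. KIF18B, a relative that trims astral microtubules, stood at 20.9 and 16.3 CPM in untreated A549, 15.6 and 15.1 with palbociclib, 21.6 and 19.6 with indisulam, 3.90 and 3.86 with both drugs and 15.8 and 14.96 with PF-06873600. Palbociclib and PF-06873600 lay just below the lower untreated library and the combination far below it (-2.26 ± 0.15). The palbociclib change of -0.28 ± 0.12 was called without untreated replicate 2 (-0.44) but not with it (adjusted p = 0.139). KIF22, which pushes chromosome arms away from the poles, stood at 49.6 and 45.7 CPM in untreated A549, 47.4 and 51.9 with palbociclib, 48.03 and 50.02 with indisulam, 22.4 and 20.4 with both drugs and 31.5 and 32.7 with PF-06873600. The single drugs overlapped the untreated pair, and the combination changed it by -1.16 ± 0.09.

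Motors of the midzone and cytokinesis held both the largest fall of the 12 and one of the smallest. KIF20A, which carries the chromosomal passenger complex to the midzone, stood at 42.01 and 49.3 CPM in untreated A549, 32.9 and 29.5 with palbociclib, 35.7 and 33.97 with indisulam, 4.54 and 5.41 with both drugs and 7.27 and 7.05 with PF-06873600. The combination and PF-06873600 both sat far below every other A549 group, by 9.14-fold (-3.19 ± 0.12) and 6.38-fold (-2.67 ± 0.12) against untreated. KIF14, which binds citron kinase at the midbody, stood at 29.5 and 31.998 CPM in untreated A549, 29.6 and 30.02 with palbociclib, 29.9 and 34.2 with indisulam, 4.61 and 5.41 with both drugs and 13.6 and 15.95 with PF-06873600. It was called with neither single drug (-0.04 ± 0.10 and 0.06 ± 0.10), and the combination changed it by -2.61 ± 0.13, with the most negative interaction of the 12 (-2.63 ± 0.16). KIF4A, which sets midzone length with PRC1, stood at 34.2 and 33.7 CPM in untreated A549, 23.97 and 26.2 with palbociclib, 38.8 and 39.5 with indisulam, 7.02 and 7.47 with both drugs and 21.8 and 21.8 with PF-06873600. Palbociclib and PF-06873600 were lower than untreated, indisulam slightly higher, and the combination 4.68-fold lower (-2.23 ± 0.10). KIF23, the motor subunit of the centralspindlin complex, stood at 57.9 and 63.7 CPM in untreated A549, 54.02 and 53.5 with palbociclib, 73.5 and 80.2 with indisulam, 28.9 and 31.02 with both drugs and 46.8 and 47.6 with PF-06873600. Indisulam was above the untreated pair and the combination below it, by -1.02 ± 0.08. KIF20B, needed for the final cut between daughter cells, stood at 25.96 and 29.6 CPM in untreated A549, 44.3 and 40.9 with palbociclib, 20.04 and 23.2 with indisulam, 10.7 and 9.40 with both drugs and 23.9 and 23.2 with PF-06873600. The single drugs moved it in opposite directions, and the combination fell below both (-1.47 ± 0.11).

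**Figure D2:**
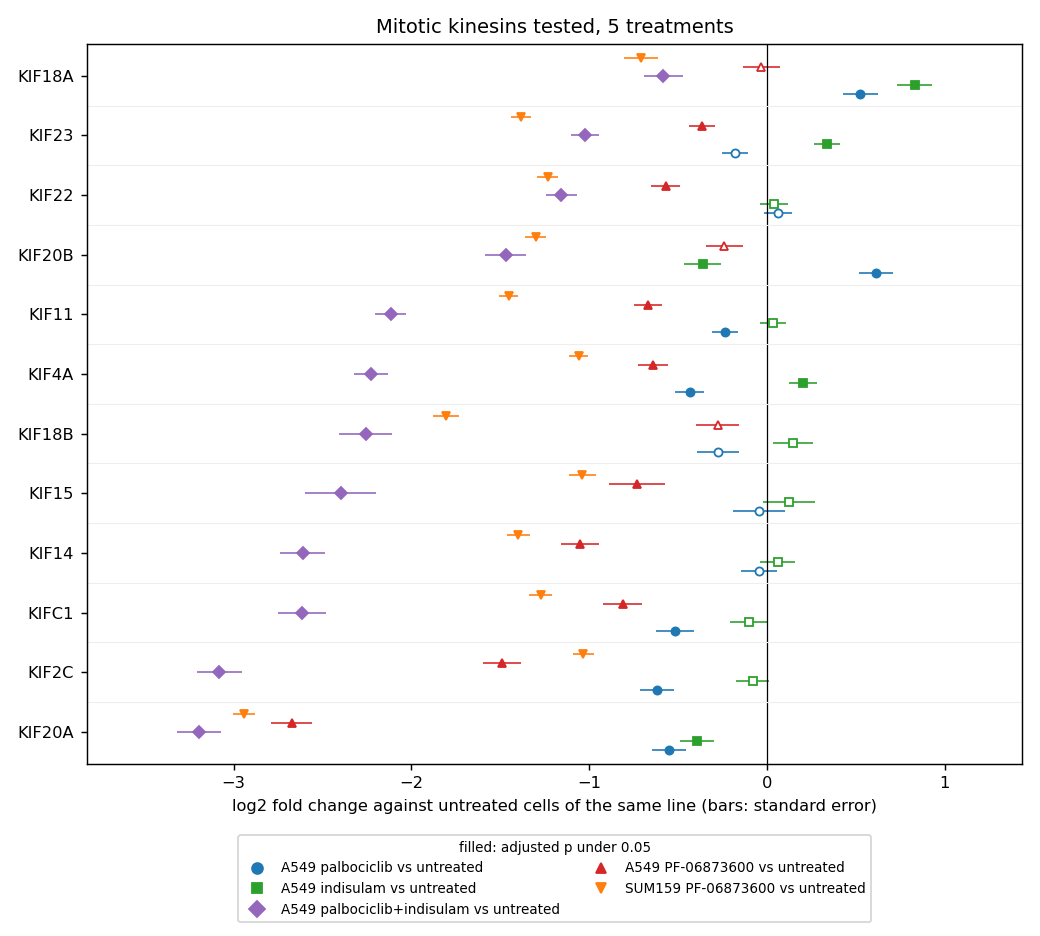
Log2 fold change (x axis, bars are SE) of the 12 mitotic kinesins tested (y axis) in 5 treatments against untreated cells of the same line, filled where the adjusted p is under 0.05. The combination (diamonds) lies left of 0 for each gene, from -3.19 (KIF20A) to -0.58 (KIF18A), while palbociclib and indisulam alone lie between -0.62 and 0.83.

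Promoters of the family were read from RefSeq (GRCh38.p14), which gave a window of 250 bases before to 50 after the start for 34 of the 42 kinesins. Where a gene had several starts, only the most upstream was used, which kept 27305 of 35116 windows. Other starts were not searched. Each was searched on both strands for the cell cycle genes homology region (CHR, TTTGAA or TTCGAA) and for the CCAAT box, a pair of short elements known from promoters of genes used in late cell cycle. Both were present in 10 of 14 mitotic kinesins (71.4%), 1 of 11 transport kinesins and 1 of 9 other kinesins, and in 6.63% of 27305 RefSeq promoters. A CHR alone was found in 78.6% of mitotic kinesins against 16.7% of all promoters, and a CCAAT box in 78.6% against 35.7%. The mitotic windows include those of KIF2B and KIF4B, which were hardly counted here. An E2F letter pattern (TTTCCCGC, TTTGGCGC, TTTCGCGC or TTTGCCGC) was in 1 of 14 mitotic kinesins and 3.34% of all promoters.

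The 150 bases before the start are shown for KIF11 and KIF4A as promoters with both elements, KIF18A as the mitotic kinesin with the smallest fall, KIF20A and KIF2C as those with the largest falls, and KIF3C as a transport kinesin that rose. Capitals mark CHR letters (TTTGAA, or TTCAAA when read on the other strand) and CCAAT letters (or ATTGG on the other strand), each written 5′ to 3′ on the gene's strand.
KIF11: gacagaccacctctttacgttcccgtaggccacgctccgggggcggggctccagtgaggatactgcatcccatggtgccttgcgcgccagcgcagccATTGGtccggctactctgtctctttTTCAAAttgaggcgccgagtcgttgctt
KIF4A: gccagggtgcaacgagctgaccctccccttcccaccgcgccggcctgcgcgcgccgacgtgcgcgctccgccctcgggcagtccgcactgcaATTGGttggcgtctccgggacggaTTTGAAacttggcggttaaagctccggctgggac
KIF18A: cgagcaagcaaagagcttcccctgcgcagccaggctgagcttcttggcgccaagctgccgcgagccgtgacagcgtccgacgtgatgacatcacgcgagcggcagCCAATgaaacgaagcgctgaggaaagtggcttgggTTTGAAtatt
KIF20A: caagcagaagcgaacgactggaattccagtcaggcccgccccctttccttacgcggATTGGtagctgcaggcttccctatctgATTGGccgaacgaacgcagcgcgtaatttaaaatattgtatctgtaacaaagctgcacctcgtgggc
KIF2C: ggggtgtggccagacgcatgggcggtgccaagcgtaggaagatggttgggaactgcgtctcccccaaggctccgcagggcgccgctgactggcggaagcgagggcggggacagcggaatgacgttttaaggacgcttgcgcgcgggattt
KIF3C: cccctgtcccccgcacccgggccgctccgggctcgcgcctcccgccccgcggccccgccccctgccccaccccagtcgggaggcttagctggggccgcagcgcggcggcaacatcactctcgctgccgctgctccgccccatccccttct
They lie at chr10:92592980-92593129 (+), chrX:70289954-70290103 (+), chr11:28108157-28108306 (-), chr5:138178962-138179111 (+), chr1:44739687-44739836 (+) and chr2:25982498-25982647 (-). KIF11, KIF4A and KIF18A carry a CCAAT box followed by a CHR close to the start. KIF20A, whose exons share 206 bases with BRD8 and CDC23 on the opposite strand, carries CCAAT letters in 2 places and no CHR, and KIF2C and KIF3C carry neither in the window. KIF20A and KIF2C, the mitotic kinesins that fell most with the combination, had no CHR letters here. Whether these letters bear on the size of the fall was not tested. Outside the mitotic list, the windows of KIF24 and KIF5B held both elements. A match is a run of letters and not a measured binding site, and no match says only that these letters are not in this window.

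Transport kinesins were called in both directions. Palbociclib left 1 of the 15 lower and 1 higher (7.4% and 8.3% of all genes tested), indisulam 2 lower and 5 higher (17.5% and 28%), and the combination 2 lower and 9 higher (30% and 35.1%). Their median log2 fold changes were 0.02, 0.13 and 0.54. The 9 higher include KIF5C, which passed the filter on low counts only through the combination libraries. Against the single drugs the combination left 1 lower and 8 higher than palbociclib (26.9% and 33.5% of all genes), and 1 lower and 7 higher than indisulam (23.9% and 22%). The interaction was called for 2, both positive, where 14.5% of all genes were negative and 10.7% positive. PF-06873600 left 4 lower and 6 higher in each line, where 27.8% of all genes tested of A549 were lower and 28.5% higher, beside 35.6% lower and 38.1% higher for SUM159. In the combination the count lower was 4 without untreated replicate 1 and 1 without either combination replicate, and with a mean of at least 50 counts required, 5 rather than 9 were higher, since KIF1A, KIF5A, KIF5C and KIF17 were then not tested.

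KIF3C, a kinesin-2 motor that pairs with KIF3A, was the only member of the family called higher in all 5 treatments. It stood at 21.003 and 20.3 CPM in untreated A549, 42.4 and 41.7 with palbociclib, 55.2 and 59.9 with indisulam, 149.8 and 144 with both drugs and 88.1 and 91.2 with PF-06873600. Each treatment lay above both untreated libraries and the combination lay highest, in the order palbociclib, indisulam, PF-06873600 and combination with no overlap. The log2 fold changes were 1.02 ± 0.08, 1.48 ± 0.07, 2.12 ± 0.07 and 2.83 ± 0.07, the last a 7.11-fold rise. The interaction was 0.33 ± 0.10 (adjusted p = 0.0258) and was not called by DESeq2, with no filter on low counts, or without palbociclib replicate 1 or 2, indisulam replicate 1 or combination replicate 1 or 2 (0.27 to 0.36). SUM159 had 16.2 and 13.8 CPM in untreated SUM159 and 46.1 and 46.7 with PF-06873600, a change of 1.63 ± 0.09. Among the other kinesin-2 motors, KIF3A was called higher only in the combination (0.28 ± 0.07, not called by DESeq2), and KIF3B changed by -0.28 ± 0.07 with PF-06873600, a call lost without treated replicate 1 (-0.23). In the combination KIF3B was at -0.13 ± 0.07 and not called, but was called with TMM factors (-0.21) and without untreated replicate 1 (-0.23).

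KIF5A, KIF5C, KIF1A and KIF17 had very low levels in untreated A549, and each was called higher with the combination. None of these passed the filter on low counts through the untreated libraries, and each was tested only because treated libraries were higher. KIF5C passed only through the combination pair, so its call there was not independent of the filter. KIF5A, a neuronal heavy chain of conventional kinesin, stood at 0.340 and 0.200 CPM in untreated A549, 0.148 and 0.183 with palbociclib, 1.73 and 0.793 with indisulam, 3.12 and 3.99 with both drugs and 1.23 and 0.680 with PF-06873600. Its 8 untreated counts against 106 combination counts give a ratio of 13.3 (95% exact interval 6.50 to 31.6, counting error only). Indisulam, the combination and PF-06873600 were called higher, though the indisulam call was lost without indisulam replicate 1 (1.53) and the PF-06873600 call (1.75 ± 0.59) without untreated replicate 2 (1.42) or treated replicate 1 (1.31). KIF5C, another neuronal heavy chain, stood at 0.136 and 0.200 CPM in untreated A549, 0 and 0.122 with palbociclib, 0.346 and 0.198 with indisulam, 0.709 and 0.772 with both drugs and 0.383 and 0.309 with PF-06873600. With 5 untreated and 22 combination counts its ratio was 4.41 (1.63 to 14.9), and DESeq2 did not call it (adjusted p = 0.106). KIF1A, which carries synaptic vesicle precursors, stood at 0.544 and 0.467 CPM in untreated A549, 0.594 and 0.549 with palbociclib, 0.898 and 1.12 with indisulam, 2.41 and 2.25 with both drugs and 2.22 and 1.85 with PF-06873600. The combination and PF-06873600 pairs lay above all the others, by 2.19 ± 0.32 and 1.98 ± 0.33. KIF17, a dendritic cargo motor, stood at 0.612 and 0.467 CPM in untreated A549, 0.445 and 0.671 with palbociclib, 1.66 and 1.06 with indisulam, 1.28 and 1.42 with both drugs and 0.613 and 0.989 with PF-06873600. It was called higher with indisulam (1.32 ± 0.41) and the combination (1.31 ± 0.41), but by DESeq2 in neither, nor in either without untreated replicate 2 (1.13 in both).

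KIFC2, a minus-end-directed motor also studied in neurons, was better covered and stood at 29.7 and 17.999 CPM in untreated A549, 21.7 and 28.5 with palbociclib, 49.6 and 35.9 with indisulam, 61.8 and 65.4 with both drugs and 40.7 and 37.9 with PF-06873600. The untreated pair differed 1.65-fold between its own libraries, yet both combination libraries lay above every other A549 library (1.42 ± 0.18). KIFC2 shares 791 exon bases with FOXH1 on the opposite strand, and the strand setting of the counts is not given in the sources used here. KIF13A, a carrier of recycling endosomes, stood at 61.4 and 64.4 CPM in untreated A549, 73.6 and 64.7 with palbociclib, 81.4 and 87.6 with indisulam, 96.01 and 92.6 with both drugs and 78.3 and 80.2 with PF-06873600. Indisulam, the combination (0.58 ± 0.07) and PF-06873600 lay above the untreated pair. KIF13B, its close relative, stood at 97.6 and 95.1 CPM in untreated A549, 80.8 and 71.9 with palbociclib, 90.8 and 89.1 with indisulam, 84.02 and 84.6 with both drugs and 54.8 and 53.5 with PF-06873600. It was lower with palbociclib (-0.34 ± 0.07) and lower still with PF-06873600 (-0.83 ± 0.07). The palbociclib call was lost without palbociclib replicate 2 (-0.25) or with only the compared groups fitted, and the combination call (-0.19 ± 0.07) without combination replicate 1 (-0.19) or 2 (-0.20).

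Among the remaining transport kinesins KIF16B, an early endosome motor, fell with indisulam (-0.32 ± 0.08), the combination (-0.58 ± 0.08) and PF-06873600 (-0.69 ± 0.08). KIF1C fell slightly with indisulam (-0.17 ± 0.06, adjusted p = 0.0378) and rose with the combination (0.54 ± 0.06) and PF-06873600 (0.85 ± 0.06). The indisulam call on KIF1C was lost without untreated replicate 1 and without either indisulam replicate. KIF1B, a carrier of mitochondria and vesicles, was called in no A549 treatment (log2 fold changes -0.11 to 0.08), although without untreated replicate 1 indisulam (-0.22) and the combination (-0.24) were called lower, and without untreated replicate 2 PF-06873600 (0.23) was called higher. KIFC3, a minus-end-directed motor of cell junctions, was called in A549 with PF-06873600 (-0.37 ± 0.11). Its untreated libraries differed 1.40-fold, and without untreated replicate 1 the PF-06873600 change was -0.10 and not called, while the indisulam change was 0.37 and called. Without untreated replicate 2 the combination change was -0.37 and called. The PF-06873600 call was also lost without treated replicate 2 (-0.36) and with only the compared groups.

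**Figure D3:**
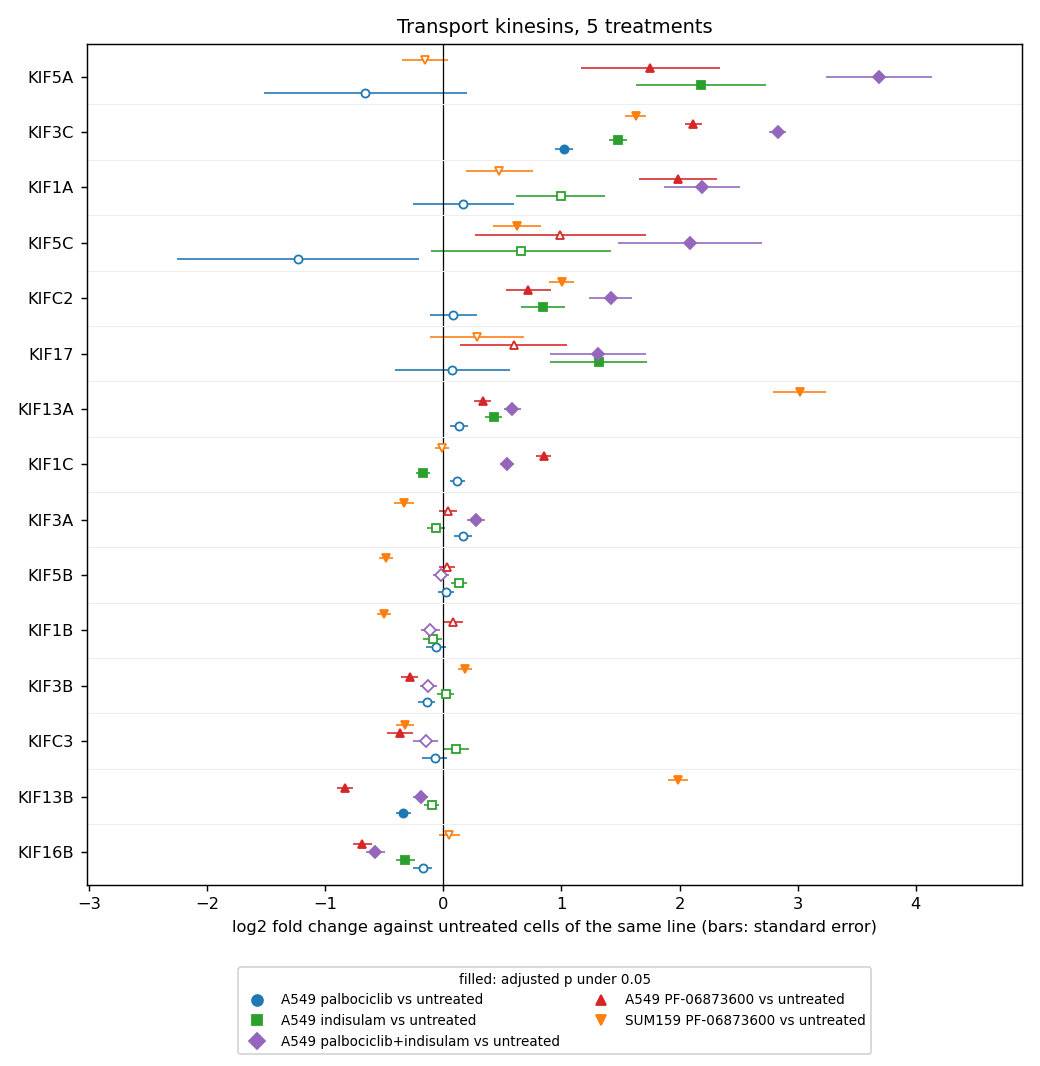
Log2 fold change (x axis, bars are SE) of the 15 transport kinesins (y axis) in 5 treatments against untreated cells of the same line, filled where the adjusted p is under 0.05. KIF3C is filled and right of 0 in all 5, the wide bars belong to genes with few counts such as KIF5A and KIF5C, and KIF13B lies left of 0 in A549 and at 1.98 in SUM159.

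The other kinesins were likewise mixed. In A549 11 of 13 were tested, of which palbociclib left 1 lower and 3 higher (7.4% and 8.3% of all genes tested), indisulam 0 lower and 4 higher (17.5% and 28%), and the combination 3 lower and 4 higher (30% and 35.1%), with medians of 0.07, 0.23 and -0.10. The 4 higher with the combination include KIF6, which passed the filter on low counts only through the combination libraries. The interaction was called for 5, all negative, where 14.5% of all genes were negative. KIF21B, which restrains microtubule growth in neurons and immune cells, stood at 51.2 and 52.4 CPM in untreated A549, 29.8 and 28.6 with palbociclib, 47.5 and 45.7 with indisulam, 15.9 and 16.9 with both drugs and 10.8 and 11.6 with PF-06873600. Indisulam lay close below the untreated pair, and palbociclib (-0.83 ± 0.08), the combination (-1.66 ± 0.08) and PF-06873600 (-2.21 ± 0.09) lay progressively lower with no overlap. KIF24, a centriolar kinesin that holds back cilium growth, stood at 11.8 and 12.1 CPM in untreated A549, 17.7 and 17.3 with palbociclib, 11.6 and 12.5 with indisulam, 4.61 and 4.57 with both drugs and 15.2 and 16.01 with PF-06873600. It was above the untreated pair with palbociclib (0.55 ± 0.10) and PF-06873600 (0.39 ± 0.10) and below it with the combination (-1.38 ± 0.13), with an interaction of -1.94 ± 0.16. The PF-06873600 call on KIF24 was lost in DESeq2 and without treated replicate 2 (0.34). KIF7, a ciliary regulator of Hedgehog signalling, stood at 5.64 and 3.80 CPM in untreated A549, 6.83 and 6.22 with palbociclib, 12.2 and 11.2 with indisulam, 16.8 and 17.8 with both drugs and 11.6 and 11.3 with PF-06873600. Indisulam (1.30 ± 0.16), the combination (1.87 ± 0.15) and PF-06873600 (1.27 ± 0.16) were all higher, although the untreated pair differed 1.48-fold. KIF7 shares 589 exon bases with TICRR on the opposite strand.

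KIF12, an epithelial kinesin of kidney and bile duct, had a 1.73-fold gap between its untreated duplicates and stood at 93.3 and 53.9 CPM in untreated A549, 37.3 and 55.95 with palbociclib, 68.3 and 47.4 with indisulam, 38.6 and 41.9 with both drugs and 15.1 and 13.4 with PF-06873600. Palbociclib and indisulam overlapped the untreated pair, the combination lay below it (-0.87 ± 0.23) and PF-06873600 lay lowest, 5.19-fold down (-2.38 ± 0.26). Without untreated replicate 2 the palbociclib (-0.99) and indisulam (-0.69) changes were called as well, and both were called with no filter on low counts. KIF26A, an atypical kinesin without motor activity, stood at 1.36 and 0.933 CPM in untreated A549, 1.26 and 0.976 with palbociclib, 2.83 and 3.63 with indisulam, 0.993 and 1.09 with both drugs and 2.68 and 2.53 with PF-06873600. Indisulam (1.49 ± 0.27) and PF-06873600 (1.18 ± 0.28) were higher, while the combination overlapped the untreated pair, and its interaction of -1.58 ± 0.44 was lost in DESeq2 (adjusted p = 0.104) and without palbociclib replicate 1 (-1.40), indisulam replicate 2 (-1.38) or combination replicate 1 (-1.51). KIF26B, its relative in Wnt signalling, stood at 3.74 and 3.67 CPM in untreated A549, 7.42 and 4.21 with palbociclib, 5.11 and 5.55 with indisulam, 8.65 and 7.98 with both drugs and 5.36 and 5.07 with PF-06873600. The combination pair was highest (1.16 ± 0.22). KIF6, of motile cilia, stood at 0.340 and 0.467 CPM in untreated A549, 0.148 and 0.549 with palbociclib, 0.276 and 0.529 with indisulam, 1.21 and 0.901 with both drugs and 0.536 and 0.556 with PF-06873600. Its combination rise of 1.36 ± 0.49 was not called by DESeq2 (adjusted p = 0.174) or without untreated replicate 1 (1.15) or combination replicate 1 (1.14). KIF6 passed the filter on low counts only through the combination libraries, so its call was not independent of the filter.

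KIF2A, a spindle pole and neurite depolymerase related to KIF2C, was higher with palbociclib (0.26 ± 0.06) and PF-06873600 (0.35 ± 0.06) and was not called in the combination (-0.14 ± 0.07), except with TMM factors (-0.22) or without untreated replicate 1 (-0.19). The palbociclib call on KIF2A was lost without palbociclib replicate 1 (0.23) or with only the compared groups fitted (adjusted p = 0.113). Its exons overlap DIMT1 on the opposite strand by 2446 bases. Counted as mitotic, KIF2A would not have been called lower with the combination in the main fit. It would have been called higher with palbociclib and with PF-06873600 in A549. KIF21A, a brake on microtubules at the cell cortex, was higher in all 4 A549 treatments (0.22 to 0.43). The palbociclib call on KIF21A was not made by DESeq2 and was lost without untreated replicate 1 or either palbociclib replicate, and the indisulam call was not made with TMM factors, by DESeq2 or without indisulam replicate 2. KIF9, of motile cilia, was higher with PF-06873600 (0.54 ± 0.11) and with indisulam (0.32 ± 0.11). The indisulam call on KIF9 was lost with TMM factors, in DESeq2, with no filter on low counts, with only the compared groups, and without either untreated replicate or indisulam replicate 2 (0.24 to 0.33). KIF27 was not called in any treatment.

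PF-06873600 could be compared between the lines at the same dose and time. In A549 9 of 12 mitotic kinesins were lower and 0 higher, where 27.8% of genes tested were lower and 28.5% higher. KIF18A, KIF18B and KIF20B were the exceptions, at -0.03 ± 0.10, -0.28 ± 0.12 (adjusted p = 0.0621) and -0.24 ± 0.10 (adjusted p = 0.0593). KIF20B was called lower without untreated replicate 1 (-0.33) and KIF18B without untreated replicate 2 (-0.44). In SUM159 all 12 were lower, where 35.6% of 15055 genes tested were lower and 38.1% higher. The medians were -0.65 in A549 and -1.29 in SUM159, beside -0.01 and 0.02 over all genes tested. Neither count of mitotic kinesins called lower moved by more than 1 in any alternative.

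In SUM159 KIF11, KIF15 and KIFC1 were lower as well. KIF11 stood at 159.9 and 160.1 CPM in untreated SUM159 and 58.7 and 58.3 with PF-06873600, KIF15 at 41.2 and 39.6 CPM in untreated SUM159 and 19.4 and 19.9 with PF-06873600 and KIFC1 at 106 and 102 CPM in untreated SUM159 and 41.04 and 44.9 with PF-06873600. Treated and untreated pairs were far apart for each, with log2 fold changes of -1.45 ± 0.05, -1.04 ± 0.08 and -1.27 ± 0.06. Among the chromosome motors KIF2C stood at 104 and 102 CPM in untreated SUM159 and 50.97 and 49.7 with PF-06873600 and KIF22 at 96.9 and 101 CPM in untreated SUM159 and 42.1 and 42.2 with PF-06873600. KIF18A had 31.2 and 32.5 CPM in untreated SUM159 and 17.5 and 21.2 with PF-06873600, and KIF18B had 126 and 146 CPM in untreated SUM159 and 39.9 and 38.1 with PF-06873600. The pairs did not overlap, and the change was smallest for KIF18A (-0.71 ± 0.09) and largest for KIF18B (-1.80 ± 0.07).

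The midzone motors of SUM159 held the largest change of the mitotic list. KIF20A had 165 and 159 CPM in untreated SUM159 and 21.8 and 20.5 with PF-06873600, a 7.68-fold fall (-2.94 ± 0.06). KIF14 had 73.6 and 74.2 CPM in untreated SUM159 and 27.2 and 28.7 with PF-06873600, and KIF4A had 128 and 128 CPM in untreated SUM159 and 60.9 and 62.1 with PF-06873600. Both fell with no overlap, by -1.40 ± 0.07 and -1.06 ± 0.05. KIF23 had 150.5 and 148 CPM in untreated SUM159 and 57.6 and 56.8 with PF-06873600, and KIF20B had 102 and 106 CPM in untreated SUM159 and 41.97 and 42.3 with PF-06873600. Their changes were -1.38 ± 0.05 and -1.30 ± 0.06.

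Beside these falls, SUM159 libraries held some RNA of genes known from blood and vessel cells. PTPRC stood at 9.35 and 9.90 CPM in untreated SUM159 and 20.3 and 17.9 with PF-06873600, and PECAM1 at 10.9 and 11.5 CPM in untreated SUM159 and 25.5 and 27.6 with PF-06873600. Both rose with PF-06873600 (log2 fold changes 0.99 ± 0.11 and 1.25 ± 0.10), while ALB was at 0 in all 4 libraries, and their part in the kinesin results was not tested.

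The response to PF-06873600 was then compared between the lines with a test of the difference, SUM159 minus A549, in all 14 libraries. It passed for 28 of 38 kinesins, where 53% of all genes tested passed in either direction. The difference was negative for 9 of 12 mitotic kinesins and positive for 1, where 27.2% of 17279 genes tested were negative and 25.8% positive. KIF18B (-1.53 ± 0.15), KIF20B (-1.06 ± 0.12) and KIF23 (-1.02 ± 0.09) had the most negative values, so they fell more in SUM159. KIF2C alone fell more in A549 (0.46 ± 0.12). The differences of KIF20A (-0.27 ± 0.14, adjusted p = 0.133) and KIF15 (-0.31 ± 0.17, adjusted p = 0.141) did not pass, and KIF20A passed without A549 untreated replicate 2 (-0.39). The call on KIF14 (-0.35 ± 0.13, adjusted p = 0.0308) was lost with TMM factors, in DESeq2, with no filter on low counts, and without A549 untreated replicate 1, A549 treated replicate 2, either untreated SUM159 replicate or treated SUM159 replicate 1 (-0.35 to -0.22). Untreated A549 libraries enter both this comparison and those with palbociclib and indisulam.

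Outside the mitotic list several kinesins moved in opposite directions. Of 21 kinesins called in both lines, 10 were lower in both, 3 higher in both (KIF3C, KIF13A and KIFC2) and 8 opposite. Over the 6132 genes called in both lines, 26.2% were lower in both, 29.8% higher in both and 44% opposite. KIF13B was the widest of the opposite transport motors, since A549 fell by 0.83 on the log2 scale while SUM159 had 10.8 and 10.6 CPM in untreated SUM159 and 42.3 and 42.3 with PF-06873600. The SUM159 rise was 1.98 ± 0.09 and the difference 2.81 ± 0.10. KIF21B had 2.05 and 2.07 CPM in untreated SUM159 and 3.04 and 4.21 with PF-06873600, low levels at which the SUM159 rise of 0.83 ± 0.24 was not called by DESeq2 or without treated replicate 2 (0.56). Its difference from the A549 fall was 3.04 ± 0.21. KIF13A, near 60 CPM in untreated A549, had 0.965 and 0.877 CPM in untreated SUM159 and 7.72 and 7.33 with PF-06873600, a rise of 3.02 ± 0.22. KIF26B had 0.482 and 0.376 CPM in untreated SUM159 and 5.14 and 4.92 with PF-06873600, a change of 3.52 ± 0.29 from under 10 counts per untreated library. It passed the filter on low counts in SUM159 only through the treated pair. Its place as the largest log2 fold change of a kinesin in SUM159 was therefore not independent of the filter.

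KIF7 and KIF24 went the other way. KIF7 had 20.6 and 22.9 CPM in untreated SUM159 and 14.9 and 18.01 with PF-06873600, a fall of -0.39 ± 0.11 against its rise in A549, with a difference of -1.67 ± 0.20. The SUM159 call was lost without treated replicate 1 (-0.27). KIF24 had 18.6 and 19.3 CPM in untreated SUM159 and 12.9 and 13.7 with PF-06873600, a change of -0.51 ± 0.10 and a difference of -0.90 ± 0.14. KIF2A, KIF21A and KIF9 also rose in A549 and fell in SUM159, with differences of -1.01 ± 0.08, -0.64 ± 0.09 and -0.92 ± 0.17, although the SUM159 call on KIF9 was not made by DESeq2 and was lost without untreated replicate 2 or either treated replicate. KIF3B was lower in A549 and higher in SUM159 by small amounts (0.47 ± 0.10), and its SUM159 call was lost in DESeq2 and without 3 of the 4 libraries in turn (0.11 to 0.19).

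The rest of the SUM159 response was uneven. KIFC2 had 13.99 and 18.5 CPM in untreated SUM159 and 31.98 and 33.1 with PF-06873600, a rise of 1.00 ± 0.11. KIF5C had 3.80 and 2.69 CPM in untreated SUM159 and 5.14 and 4.92 with PF-06873600, a change of 0.63 ± 0.20 that DESeq2 did not call and that was lost without untreated replicate 2 (0.40) or treated replicate 1 (0.60). KIF5A had 5.97 and 10.3 CPM in untreated SUM159 and 7.42 and 7.14 with PF-06873600, where the untreated libraries spanned both treated ones, and it was called lower only without untreated replicate 1 (-0.50). KIF1A had 1.33 and 1.19 CPM in untreated SUM159 and 1.87 and 1.65 with PF-06873600, and KIF17 had 0.663 and 0.626 CPM in untreated SUM159 and 0.994 and 0.615 with PF-06873600, and neither was called. KIF12, KIF26A and KIF6 stayed at 0 to 2 counts in each SUM159 library and were not tested there. KIF1B (-0.50 ± 0.06) and KIF5B fell in SUM159 without being called in A549. KIF3A was also called lower in SUM159 (30.3 and 31.9 CPM untreated, 25.95 and 23.5 with PF-06873600), and was not called with PF-06873600 in A549. KIFC3 was called lower with PF-06873600 in both lines (84.8 and 89.1 CPM in untreated SUM159, 63.3 and 75.1 treated).

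**Figure D4:**
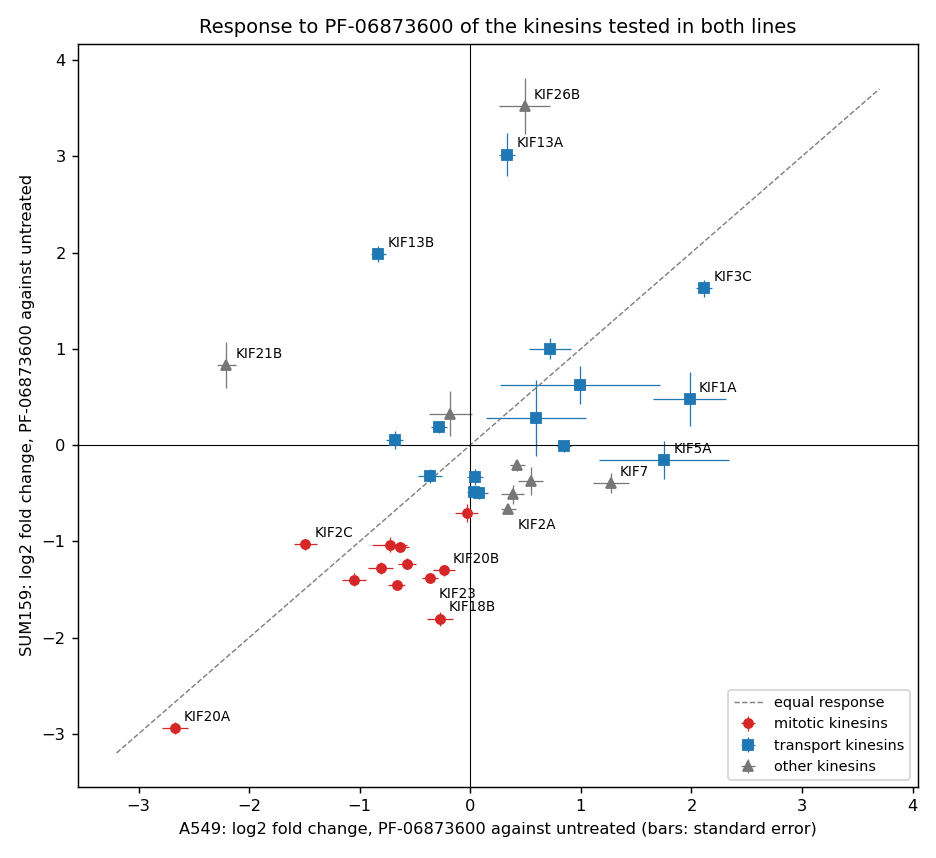
Log2 fold change with PF-06873600 in A549 (x axis) and SUM159 (y axis) for the 35 kinesins tested in both lines, with SE bars and a dashed line of equal response. Mitotic kinesins lie at or below 0 on both axes, KIF20A lowest, while KIF13B and KIF21B fall in A549 and rise in SUM159 and KIF7 does the reverse.

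**Figure D5:**
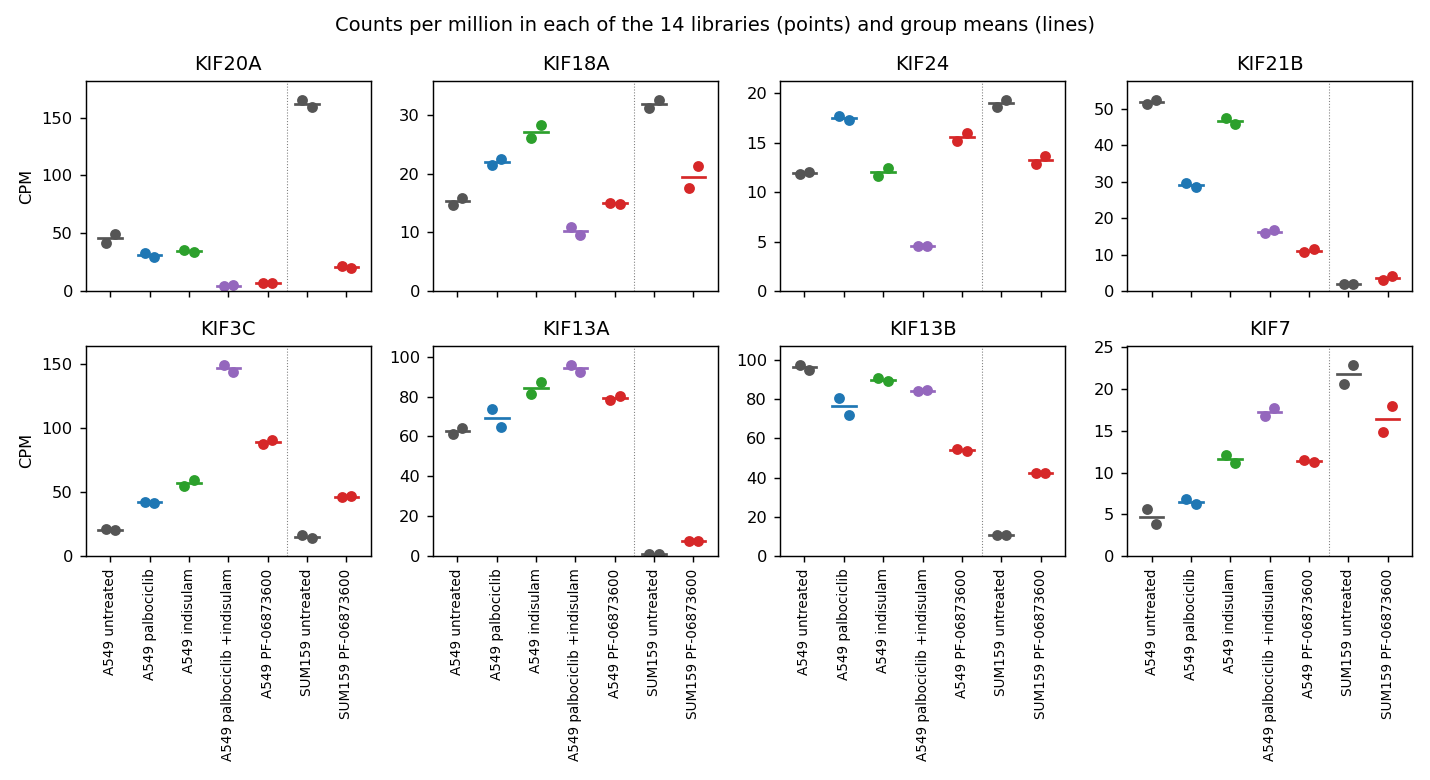
CPM in each of the 14 libraries (points, linear axes from 0, each panel with its own scale) and group means (lines, n = 2) for 8 kinesins. KIF3C rises in each treatment of both lines, KIF20A falls most with the combination and PF-06873600, KIF18A and KIF24 rise with palbociclib and fall with the combination, and KIF13A and KIF13B are high in A549 and low in untreated SUM159.

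The untreated lines themselves differed in their kinesins. All 12 mitotic kinesins were higher in SUM159, where 36.8% of genes tested were lower and 41.9% higher, with a median log2 difference of 1.86 beside 0.08 over all genes tested. KIF18B (2.87 ± 0.10) and KIF15 (2.53 ± 0.10) differed most, and KIF18A (1.06 ± 0.10) and KIF22 (1.06 ± 0.07) least. With PF-06873600 the summed mitotic level of SUM159 was still above that of untreated A549. Of the transport kinesins 6 were lower in SUM159 and 7 higher, with KIF13A (-6.08 ± 0.13) and KIF13B (-3.17 ± 0.08) lower and KIF5A (4.87 ± 0.42) and KIF5C (4.21 ± 0.43) higher. Of the other kinesins 7 were lower and 4 higher. KIF12 had 2181 counts in untreated A549 and 0 in untreated SUM159, at least 399-fold lower against a floor of 3 counts per library, and KIF26A had 34 and 0, at least 6.22-fold lower. Line, tissue and culture medium cannot be told apart in this comparison.

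Genes that work with the mitotic kinesins were lowered too. In the combination all 12 tested of 13 spindle and midzone partners were lower, where 30% of all genes tested were, with a median of -1.96. BIRC5 (-2.80 ± 0.10), a chromosomal passenger protein, HMMR (-2.76 ± 0.11), a spindle protein, and AURKB (-2.68 ± 0.14), the kinase of the passenger complex, had the largest changes. Palbociclib alone left 5 lower and 1 higher (all genes 7.4% and 8.3%), indisulam 2 lower and 1 higher (17.5% and 28%), and PF-06873600 11 lower in A549 (27.8%) and 12 in SUM159 (35.6%). In SUM159 the mitotic kinase PLK1 fell most (-2.75 ± 0.06). NUSAP1 was at under 0.5 CPM in each library and was not tested. CENPE, a kinetochore kinesin whose symbol lies outside the family rule, stood at 21.3 and 21.9 CPM in untreated A549, 24.04 and 20.4 with palbociclib, 27.7 and 31.7 with indisulam, 9.93 and 11.8 with both drugs and 12.9 and 10.8 with PF-06873600. It was above the untreated pair with indisulam (0.46 ± 0.11) and below it with the combination (-0.98 ± 0.13), as KIF18A was. STARD9, a long kinesin of the centriole, was higher with the combination (1.00 ± 0.25) and lower in SUM159 with PF-06873600 (-0.81 ± 0.16). Indisulam alone also left STARD9 higher, at 3.73 and 3.63 CPM beside 3.55 and 3.35 with both drugs. Its level with the combination was not called different from that with indisulam.

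Of 13 cargo adaptors the combination left 3 lower and 8 higher, where 30% of all genes tested were lower and 35.1% higher, with a median of 0.28. The scaffold genes MAPK8IP2 (3.16 ± 0.33) and MAPK8IP1 (1.96 ± 0.13), which link kinesin-1 to its cargo, and the kinesin light chain KLC3 (2.90 ± 0.69) had the largest changes, although MAPK8IP2 and KLC3 were at under 5 and 1 CPM. KLC3, counted among the 8 higher, passed the filter on low counts only through the combination libraries, and MAPK8IP2 only through treated libraries. Neither call was therefore independent of the filter. MAPK8IP2 was at 0.476 and 0.467 CPM untreated and 4.33 and 4.25 with both drugs, and MAPK8IP1 at 7.34 and 5.53 and 24.96 and 25.3. Palbociclib left 2 adaptors lower and 1 higher (all genes 7.4% and 8.3%), indisulam 1 lower and 5 higher (17.5% and 28%), and PF-06873600 4 lower and 4 higher in A549 (27.8% and 28.5%) and 3 lower and 4 higher in SUM159 (35.6% and 38.1%).

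Cytoplasmic dynein and dynactin form the motor complex that moves cargo the opposite way. The combination left 2 of 14 lower and 6 higher, where 30% of all genes tested were lower and 35.1% higher, with a median of 0.16. The heavy chain DYNC1H1 rose (0.86 ± 0.07), as did the light chain DYNLT3 (0.80 ± 0.08), and NDE1, a dynein regulator that also serves mitosis, fell (-0.77 ± 0.09). Palbociclib left 1 lower and 0 higher (all genes 7.4% and 8.3%), indisulam 2 lower and 3 higher (17.5% and 28%), and PF-06873600 2 lower and 4 higher in A549 (27.8% and 28.5%) and 5 of 15 lower and 5 higher in SUM159 (35.6% and 38.1%).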

How the data were processed

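Strand-specific poly(A) libraries were read single-end, and the deposited files hold, per library, the authors' raw read counts on Ensembl genes of hg38, without normalization. The submitters' processing notes name HISAT2 2.2.1 and HTSeq. The strand setting and annotation release are not given in the sources used here, and 19 of the 42 kinesins overlap exons of a gene on the opposite strand. Gene symbols, biotypes and lengths came from GENCODE release 44. The 9 summary lines of each file were left out of totals. They include reads not counted on a gene (3.80% to 6.13% per library) and ambiguous reads (3.06% to 3.56%). Reads with low mapping quality (8.71% to 11.1%) were left out as well.

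Genes kept by filterByExpr were fitted with edgeR 4.0.16 in R 4.3.3 (quasi-likelihood F test, scaling by total count, Benjamini-Hochberg adjustment over all genes tested, threshold 0.05) in models of 10 A549 libraries (15780 genes), 4 SUM159 libraries (15055) and all 14 (17279). SE was the absolute log2 fold change over the square root of F. Exact permutation of 2 against 2 libraries cannot give a two-sided p under 0.33. Intervals and floors cover counting error only.

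The members, the lists of partners and the tests were chosen with earlier results of these data known. Values in every library are given for mitotic kinesins called in any comparison, for other members called with an absolute log2 fold change of at least 1 in a treatment comparison, and for the most abundant kinesin per length; of partners, at most 3 per list and comparison have values. The labels do not tie same-numbered libraries across groups. Alternatives were TMM factors, DESeq2 1.42.0, no filter, a minimum mean of 50 counts, a fit restricted to the groups compared, the replicate number as a block, and each library left out. The block with crossed palbociclib numbers and the canonical transcript length were added after the data were seen. In counts simulated for the combination against untreated A549 (14907 genes tested), 89.6% of genes changed 1.5-fold and 97.0% of those changed 2-fold were called, with 8 false calls. For PF-06873600 in SUM159 (13995 genes tested) these were 79.1% and 94.0%, with 10 false calls. The simulation gave all genes the same spread and changed only well-counted genes. It therefore says nothing on genes with few counts or with duplicates far apart.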

Additional observations from a re-analysis of the deposited data

Results flagged for a closer look

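The response to PF-06873600 differed between the lines for 28 of the 38 kinesins tested (log2 response in SUM159 minus that in A549, edgeR's quasi-likelihood test over all 14 libraries). Among the mitotic kinesins the difference was -1.53 for KIF18B, -1.06 for KIF20B, -1.02 for KIF23, -0.78 for KIF11, -0.68 for KIF18A, -0.66 for KIF22, -0.46 for KIFC1, -0.42 for KIF4A, -0.35 for KIF14 and 0.46 for KIF2C. Among the transport kinesins it was 2.81 for KIF13B, 2.68 for KIF13A, 0.74 for KIF16B, 0.47 for KIF3B, -0.37 for KIF3A, -0.49 for KIF3C, -0.52 for KIF5B, -0.58 for KIF1B, -0.86 for KIF1C, -1.51 for KIF1A and -1.91 for KIF5A. Among the other kinesins it was 3.04 for KIF21B, 3.03 for KIF26B, -0.64 for KIF21A, -0.9 for KIF24, -0.92 for KIF9, -1.01 for KIF2A and -1.67 for KIF7. At this threshold 53% of all 17279 genes tested differed between the lines. KIF5A, KIF1A and KIF26B rest on few counts, the difference of KIF5A was lost without A549 untreated replicate 2 (-1.58), A549 treated replicate 1 (-1.47) or untreated SUM159 replicate 2 (-1.47), and that of KIF3A without treated SUM159 replicate 2 (-0.30). DESeq2 did not call the differences of KIF14, KIF1A and KIF3A.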

How the results depend on the processing

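The counts of mitotic kinesins lower with the combination (against untreated and either drug), in the interaction and with PF-06873600 in SUM159, and higher in untreated SUM159, were 12 under each alternative. With only the compared groups fitted, palbociclib left 3 mitotic kinesins lower, 0 transport kinesins lower and 1 other kinesin higher, indisulam 1 transport kinesin lower and 2 others higher, and the combination 1 transport kinesin lower against untreated and 4 against indisulam. Over all genes, 406 of 14341 were then lower and 543 higher with palbociclib, and 2020 of 14811 lower and 3305 higher with indisulam. With the combination 4284 of 15243 were lower against untreated and 4274 of 15186 against indisulam. With DESeq2, indisulam left 2 other kinesins higher, where 2742 of all 15780 genes tested were higher. The combination then left 1 other kinesin higher against palbociclib, and 0 transport kinesins lower, 4 higher and 2 others higher against indisulam. Of all genes 3990 were higher against palbociclib, and 2523 lower and 2801 higher against indisulam. The interaction had 1 transport kinesin higher and 3 others lower, and SUM159 had 1 other kinesin higher with PF-06873600. Of all genes 1241 had a positive and 1495 a negative interaction, and 4683 of 15055 were higher in SUM159. With TMM factors indisulam left 1 other kinesin lower and 2 higher, and the combination 2 others higher against palbociclib. Of all genes 3558 were then lower and 3613 higher with indisulam, and 4542 higher with the combination against palbociclib. With no filter palbociclib left 2 other kinesins lower, indisulam 1, and the combination 2 transport kinesins lower against indisulam. Of 31863 genes then tested, 1272, 2762 and 3718 were lower in these comparisons. With a mean of at least 50 counts, fewer genes were tested. Then 3 transport kinesins were higher with indisulam, 5 with the combination, 4 against palbociclib and 4 against indisulam. Of 11768 genes tested, 3505, 4091, 3876 and 2748 were higher in these comparisons. Where no construction explains a shift, the cause was not tested.

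Leaving out each library gave, for palbociclib, 3 to 6 mitotic, 0 to 2 transport and 1 to 2 other kinesins lower, and 1 to 2 transport and 1 to 3 other kinesins higher. For indisulam it gave 1 to 2 mitotic, 1 to 2 transport and 0 to 1 other kinesins lower, and 3 to 6 transport and 2 to 4 other kinesins higher. The combination had 1 to 4 transport kinesins lower, and 2 to 3 other kinesins higher against palbociclib. Against indisulam it had 0 to 1 transport kinesins lower and 1 to 1 other kinesins higher. The interaction had 0 to 1 transport kinesins lower, 1 to 4 higher and 3 to 5 others lower. SUM159 had 3 to 5 other kinesins lower and 1 to 2 higher with PF-06873600. KIFC3 with palbociclib ran from -0.30 without untreated replicate 2 to 0.19 without untreated replicate 1, beside -0.07 in all libraries, and was called both ways.

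With the replicate number as a block, 4 rather than 5 mitotic kinesins were lower with palbociclib (KIF11 at -0.24, adjusted p = 0.0515 by edgeR's test) and 2 rather than 3 higher with indisulam (KIF4A at 0.20), and calls on KIF5C, KIF9 and KIF27 were lost in 1 comparison each. The block changed no other call on a kinesin. Deviations of same-numbered libraries correlated at -0.33 between palbociclib and untreated and 0.33 between indisulam and untreated, and from -0.02 to 0.10 in the other pairs. With the palbociclib numbers crossed, 2 other kinesins were lower with palbociclib, and 1467 of all genes were lower and 1556 higher, beside 1079 and 1258 with the block as labelled. A call on a gene with few counts, such as KIF5C, is limited by depth.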
